A study of Mus musculus with 2 samples.

Results

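KAT8 peaks that were called at gene ends in R848-treated mouse macrophages, and that no peak of the untreated macrophages overlapped, were taken from 2 deposited peak lists. A peak belonged to the set where it shared not even 1 bp with any untreated peak and its summit lay within 1000 bp of either end of a protein-coding gene. Of 44772 peaks in the R848 list, 1761 met this rule, out of 96773 peaks in both lists together. Their summits lay at the ends of 1893 protein-coding genes. The members were thus chosen by the presence of a called peak in the R848 list and its absence from the untreated list. The cells were primary macrophages derived from bone marrow in medium that held M-CSF at 20 ng/ml. KAT8 was mapped with CUT&Tag, where an antibody brings a transposase to the chromatin around its target protein. The untreated group had 1 library, and the group given 100 ng/ml R848 for 2 h likewise had 1 library. Both groups were described by the same cell type label, with no genotype or strain given. With 1 library per group there is no replicate check, so no test between treatments was possible and every value below describes these libraries.

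KAT8, also known as MOF, is an acetyltransferase of the MYST family. It works in the MSL complex, which acetylates histone H4 at lysine 16, and in the NSL complex, which is found mainly at the promoters of broadly expressed genes. R848 is a small synthetic agonist of the endosomal receptor TLR7, which signals through MyD88 to NF-kB, MAP kinases and interferon regulatory factors. In macrophages this pathway is known for switching on chemokine, cytokine and immediate early genes within hours.

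The promoters of 7 genes with such a peak are printed from RefSeq (GRCm38.p6, the assembly of mm10) to show the kinds of sequence in the set. Abhd17c, a depalmitoylating enzyme, Zbtb3, a zinc finger protein, and Sesn3, an inhibitor of mTORC1, come from the 30 peaks of highest fold. Cxcl2 encodes a neutrophil chemokine, C1qc a chain of complement C1q, Wdr5 a subunit of the NSL complex and Stat2 a transcription factor of the interferon response. Each stretch is written 5′ to 3′ on the gene's strand and ends at the base before the gene's start, and capitals mark matches to the motifs named for that gene.
Abhd17c: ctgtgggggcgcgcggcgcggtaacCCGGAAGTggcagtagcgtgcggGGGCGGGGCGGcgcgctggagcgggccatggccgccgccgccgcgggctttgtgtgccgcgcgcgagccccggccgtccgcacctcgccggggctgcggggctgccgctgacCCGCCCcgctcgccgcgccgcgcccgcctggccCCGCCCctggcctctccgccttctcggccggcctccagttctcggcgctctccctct
Zbtb3: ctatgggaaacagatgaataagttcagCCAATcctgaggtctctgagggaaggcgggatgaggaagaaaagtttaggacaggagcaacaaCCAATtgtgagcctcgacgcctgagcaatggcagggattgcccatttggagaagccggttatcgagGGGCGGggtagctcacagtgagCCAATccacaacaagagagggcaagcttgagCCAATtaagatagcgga
Sesn3: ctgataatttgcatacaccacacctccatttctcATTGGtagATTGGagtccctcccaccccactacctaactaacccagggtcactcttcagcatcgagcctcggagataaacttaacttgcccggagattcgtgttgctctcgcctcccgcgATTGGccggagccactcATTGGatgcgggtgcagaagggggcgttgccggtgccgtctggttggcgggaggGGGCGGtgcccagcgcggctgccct
Cxcl2: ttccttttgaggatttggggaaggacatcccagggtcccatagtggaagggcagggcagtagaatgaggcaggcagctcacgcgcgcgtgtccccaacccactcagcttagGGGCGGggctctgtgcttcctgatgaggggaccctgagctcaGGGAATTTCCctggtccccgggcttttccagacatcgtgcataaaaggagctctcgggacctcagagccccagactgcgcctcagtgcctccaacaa
C1qc: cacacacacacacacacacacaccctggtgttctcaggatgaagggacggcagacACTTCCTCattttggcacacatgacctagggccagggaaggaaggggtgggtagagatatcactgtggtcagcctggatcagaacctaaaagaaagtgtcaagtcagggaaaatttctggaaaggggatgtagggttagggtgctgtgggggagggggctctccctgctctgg
Wdr5: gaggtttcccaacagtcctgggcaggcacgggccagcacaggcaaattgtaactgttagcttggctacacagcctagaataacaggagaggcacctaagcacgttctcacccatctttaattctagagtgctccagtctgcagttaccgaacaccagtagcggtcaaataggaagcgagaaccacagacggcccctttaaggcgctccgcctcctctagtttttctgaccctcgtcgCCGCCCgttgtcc
Stat2: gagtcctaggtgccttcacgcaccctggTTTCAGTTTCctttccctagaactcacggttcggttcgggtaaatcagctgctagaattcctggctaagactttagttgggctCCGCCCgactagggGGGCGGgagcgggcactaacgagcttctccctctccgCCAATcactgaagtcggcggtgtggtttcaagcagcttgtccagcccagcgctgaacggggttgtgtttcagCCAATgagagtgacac

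The Abhd17c stretch is chr7:84151894-84152143 on the minus strand, and its capitals mark 1 ETS motif at position -225 and 4 GC boxes. Positions count back from the gene's start. The Zbtb3 stretch, chr19:8802263-8802488 on the plus strand, held 4 CCAAT motifs and 1 GC box at position -70. The Sesn3 stretch, chr9:14276051-14276300 on the plus strand, also held 4 CCAAT motifs, with 1 GC box at position -25. The Cxcl2 stretch, chr5:90903649-90903898 on the plus strand, held 1 NF-kB motif at position -97 and 1 GC box at position -139. In the C1qc stretch, chr4:136892937-136893164 on the minus strand, the capitals mark 1 PU.1 motif at position -173. The Wdr5 stretch, chr2:27514897-27515146 on the plus strand, held 1 GC box at position -13. The Stat2 stretch, chr10:128270248-128270497 on the plus strand, held 1 ISRE motif at position -222, 2 GC boxes and 2 CCAAT motifs. A match is a description of the letters only and says nothing about which factor was bound.

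The background against which the set stands is wide. In the R848 list 64.2% of all peaks had no overlapping untreated peak, against 37.2% of the peaks with a summit at a gene end. In the untreated list 47.1% of gene-end peaks had no overlapping R848 peak, a set of 2646 peaks. Summits at gene ends made up 10.6% of R848 peaks and 6.13% of the peaks found in that list alone. The other gene-end peaks of the R848 list, 2979 in number, overlapped an untreated peak and are called shared here. Of the 1893 genes with an R848-only peak, 1461 (77.2%) had neither a shared nor an untreated-only gene-end peak. A further 212 (11.2%) also had a shared one, and 220 (11.6%) had an untreated-only peak and no shared one. Shared peaks were placed at genes by their summits in the R848 list. These genes were 8.65% of the 21887 protein-coding genes, beside 13.0% with an untreated-only and 15.7% with a shared gene-end peak.

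The peaks were narrow and weak. Their median width was 264 bp (95% order-statistic interval 258 to 270), from 200 to 882 bp, and 477 of them (27.1%) were at 200 bp, the narrowest width in the list. A width of 500 bp or more was reached by 115 peaks (6.53%) and none reached 1000 bp. The fold over background, which is the authors' own value for each peak, had a median of 2.96 (2.86 to 3.04) and ran from 1.62 to 5.59. A q-value of 0.05 or less was listed for 572 peaks (32.5%, 95% exact interval 30.3 to 34.7), and a −log10 q of 5 or more for 9 (0.511%). Shared gene-end peaks of the same list were wider and stronger, with a median width of 438 bp, a median fold of 3.72 and 74.1% at a q-value of 0.05 or less. Peaks found in the R848 list alone but away from gene ends had a median width of 244 bp, a median fold of 2.76 and 27.2% at that q-value. Width, fold and q-value bear on whether a peak is called at all, so these values describe the set and test nothing. Intervals cover counting error only.

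Few reads or fragments lay under each summit. The summit pileup, solved from the deposited fold and p-value, had a median of 10 and a range of 7 to 64, and it was 12 or less in 1560 peaks (88.6%). At the genome-wide background of the R848 library, where 72.7% of the set lay, 1 more read or fragment added 0.276 to the fold. The background was 3.37 in the untreated and 2.62 in the R848 library, a ratio of 1.29, and the lowest pileup called was 8 and 7. The part that this difference in depth has in which peaks are found in the R848 list alone was not tested. An untreated peak lay within 1000 bp of 294 members (16.7%, 15.0 to 18.5), while the median gap to the nearest untreated peak was 13473 bp.

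At the edges of the rule, the members nearest to an untreated peak were at Cyp11b1 (gap 1 bp, fold 2.75), Cdk9 (2 bp, 2.58) and Slc39a7 (3 bp, 2.53). The peaks that just failed overlapped an untreated peak by 3 bp at Defa32 and Dclk3 and by 4 bp at Tmem88, with folds of 3.32, 3.04 and 3.04. By distance, the last members were at Amh (997 bp), Pira2 (995 bp) and Atp13a2 (993 bp), and the first peaks left out were at Zmiz2 and Tubb3 (1003 bp each) and Mta1 (1004 bp). Folds on either side of this distance ran from 2.33 to 2.93.

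Most of the summits lay at the start of the gene rather than at its other end, and inside the gene rather than outside it. The reference gave the strand for the nearest gene of 1406 peaks, and 1055 of these (75.0%, 72.7 to 77.3) were at the start and 351 at the other end. For 355 peaks the strand was not available in the table used. The share at the start was 81.9% (80.2 to 83.5) in untreated-only gene-end peaks and 95.6% (94.7 to 96.4) in shared ones, so the 3 intervals did not overlap. Over the set, 1063 summits (60.4%, 58.0 to 62.7) lay inside the nearest gene, 759 (43.1%) lay within 250 bp of its end, and the median distance was 315 bp. Shared peaks lay inside the gene less often (54.8%) and within 250 bp more often (72.1%), and untreated-only peaks stood at 64.2% and 51.5%.

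**Figure D1:**
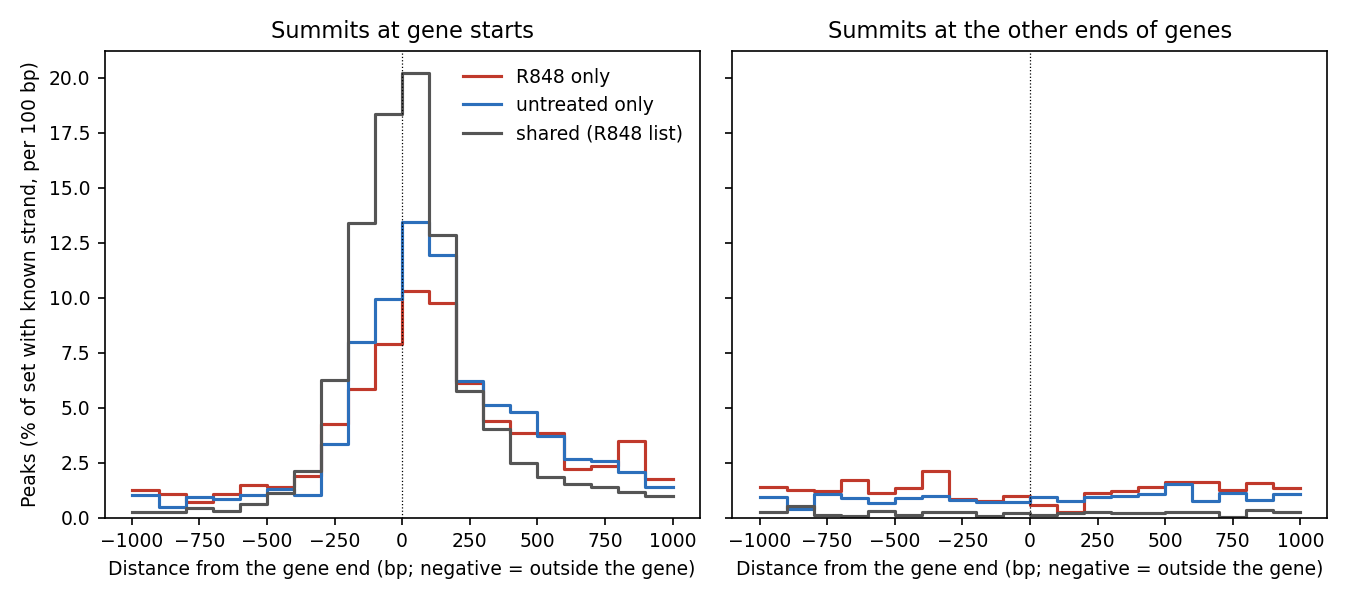
Distance of peak summits from the start (left) and the other end (right) of the nearest gene, in bins of 100 bp, as a percentage of the peaks of each set with known strand; negative distances lie outside the gene. R848-only peaks (red) cluster around the start less tightly than shared peaks (grey), and both sets of peaks found in 1 list only spread along the first bases inside the gene.

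The ends differed in how tightly the summits gathered there. At the start, 64.1% of summits were inside the gene, 52.7% were within 250 bp and the median distance was 230 bp. At the other end, 48.4% were inside, 14.5% were within 250 bp and the median distance was 563 bp. Peaks at the start had a median fold of 3.04 and 34.1% had a q-value of 0.05 or less, beside 2.76 and 27.6% at the other end. A single peak served 2 or more genes in 202 cases (11.5%), beside 19.9% of shared and 13.0% of untreated-only gene-end peaks.

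The stronger the peak, the more often it lay at a start. Among peaks with a fold below 2.5, 68.6% were at the start (194 of 283), and among those with a fold of 4 or more 88.5% were (46 of 52, 76.6 to 95.6). The bins between gave 70.2% from 2.5 to 3, 78.8% from 3 to 3.5 and 85.0% from 3.5 to 4. Shared peaks of the same list rose over the same bins from 87.7% to 98.0%, and lay above the R848-only peaks in each bin. With a q-value of 0.05 or less, 360 of 457 members of known strand were at the start (78.8%, 74.7 to 82.4), and with a higher q-value 695 of 949 were (73.2%). Folds come from lists of different depth and are compared only within a list.

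**Figure D2:**
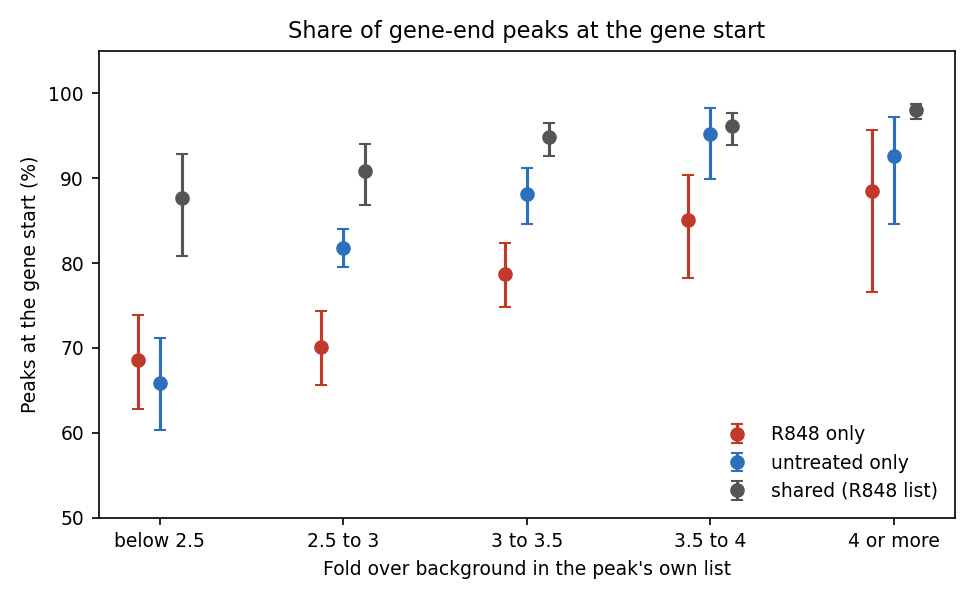
Share of gene-end peaks at the gene start (vertical axis, %, which starts at 50) by fold over background in the peak's own list, for R848-only (red), untreated-only (blue) and shared peaks of the R848 list (grey), with 95% exact intervals. Shares are taken over peaks of known strand. The R848-only share is 68.6% below a fold of 2.5 and 88.5% at a fold of 4 or more, below the shared peaks in each bin.

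The 30 peaks of highest fold, from 4.14 to 5.59, lay at 33 genes and were 238 to 842 bp wide, with a pileup of 14 to 20 at the summit. The strand was known for 24 of them, and 23 were at a start. The exception was Rasgef1b, a Ras exchange factor, with a fold of 4.15 at its other end. Of the 30 summits, 25 lay within 250 bp of the gene end and 15 inside the gene. An untreated peak lay within 1000 bp of 2 of them, at Cstb, the protease inhibitor cystatin B (fold 4.42, gap 483 bp), and at Gga1, a Golgi sorting adaptor (fold 4.38, gap 77 bp). As 26 peaks of the set shared the fold of 4.14 at which this group ends, its last place was set by order alone.

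Some of these genes are known from signalling and growth control. Nfkb1, which encodes the p105 and p50 forms of NF-kB, had a peak of 658 bp and fold 4.70, with the summit 557 bp inside one end of the gene and the nearest untreated peak 47610 bp away. Eif4ebp2, a repressor of cap-dependent translation that mTORC1 phosphorylates, had a fold of 4.97, with the summit 223 bp upstream of its start. Sesn3 had a fold of 4.70, its summit 99 bp upstream. Plcg1, a phospholipase C, and Mllt3, a chromatin reader of the super elongation complex, each had a fold of 4.42, with the summits 83 bp and 56 bp inside their starts. Mob1a, a Hippo pathway adaptor, and Mthfd2, a mitochondrial folate enzyme on the other strand, shared a peak of fold 4.42, with the summit 136 bp inside the start of Mob1a and 159 bp outside that of Mthfd2.

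Others are known from the cytoskeleton, chromatin or transport. Gprin1, which is linked to neurite outgrowth, had the highest fold of the set, 5.59, at chr13:54748965-54749512, with the summit 608 bp inside its start. That gene also had an untreated-only peak at 1 of its ends. Abhd17c followed with 5.53, its summit 198 bp upstream of the start. Katna1, the catalytic subunit of the microtubule-severing enzyme katanin, and Zbtb3 each had a fold of 5.25, with the summits 48 bp and 16 bp outside the gene. Myo1e, a class I myosin, had 4.70, and Arhgef11, a guanine nucleotide exchange factor, and Rhpn2 had 4.42 each. Trim46, a microtubule organiser of axons, and Krtcap2, a subunit of the oligosaccharyltransferase, shared a peak of fold 4.84. The zinc transporter Slc39a3 and the mitochondrial ornithine transporter Slc25a15 both stood at 4.70, with summits 52 bp and 169 bp inside their starts.

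The remaining strong peaks lay at genes of varied roles. Dhrs13, a short-chain dehydrogenase, had a fold of 4.97 and Pqlc3, a PQ-loop membrane protein, 4.75. Prep, a prolyl endopeptidase, Prickle4 of the planar cell polarity family, the Golgi membrane protein Yipf5, the DNA and RNA endonuclease Endov and the pair Nufip1 and Gpalpp1 all had 4.70. Ryr3, a calcium release channel, had 4.66. The nuclear envelope protein Ankle2 and the RNA-binding protein Atxn2 had 4.42, and the prefoldin subunit Pfdn2 closed the group at 4.14.

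**Figure D3:**
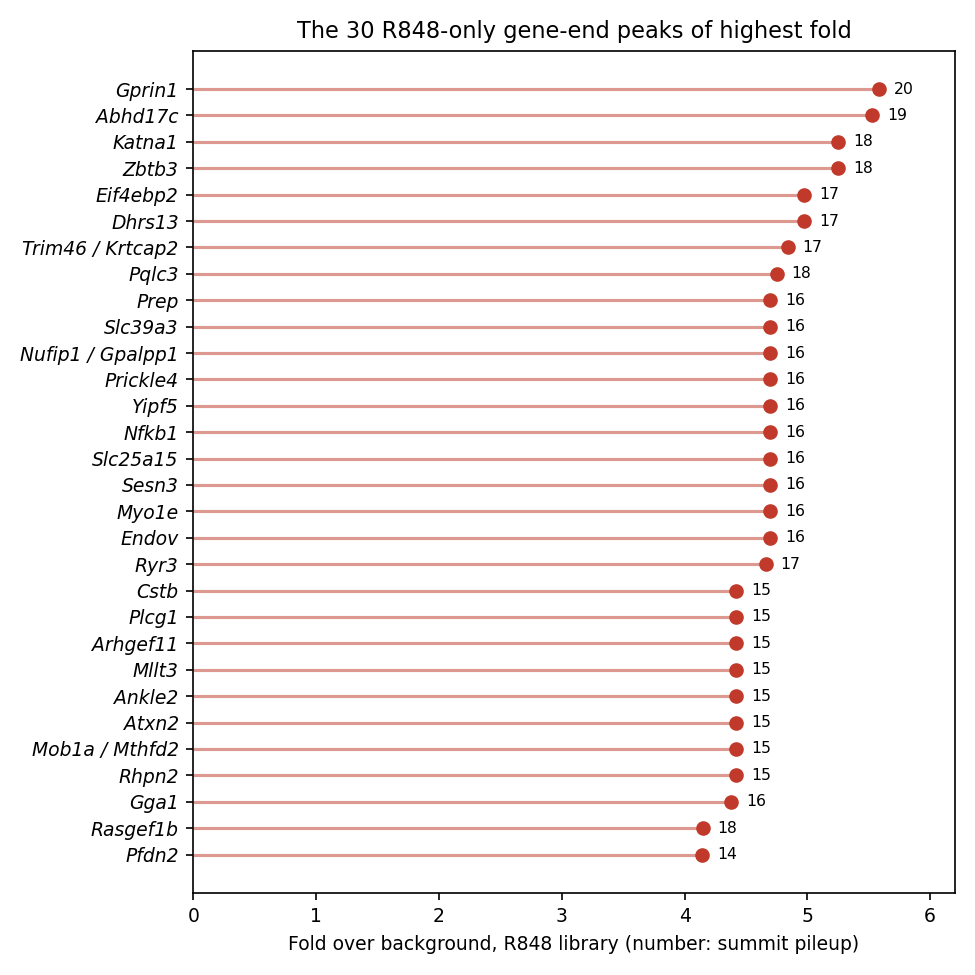
Fold over background in the R848 library (horizontal axis) for the 30 R848-only gene-end peaks of highest fold, each named by its gene or pair of genes, with the summit pileup printed beside each point. Folds run from 5.59 at Gprin1 to 4.14 at Pfdn2, and many peaks share a fold because the pileup is a small whole number.

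The widest peak of the set, 882 bp, lay 739 bp inside the start of Akna, an AT-hook protein, at a fold of 2.86. Gadd45b, an early stress response gene, had a peak of 861 bp and fold 3.11 beyond its other end. Pqlc3 (842 bp), Ist1, an ESCRT-III related protein (810 bp, fold 3.87), and Tmcc2 (783 bp, fold 3.59) came next. Width and fold thus did not pick the same peaks, and Pqlc3 alone stood in both groups.

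A total of 70 genes had 2 or more peaks of the set. Jakmip3 had 3, with folds of 3.26 and 2.97 on either side of its start and 2.76 beyond its other end. Lrrc45 also had 3, of fold 2.76, 2.89 and 3.33. Sec61a1, the channel subunit of the endoplasmic reticulum translocon, had peaks of fold 3.87 and 3.04 on either side of one end. Stab2, a scavenger receptor, had 3.87 before its start and 2.97 beyond its other end, and Phldb1 4.04 inside its start and 2.51 beyond its other end. Gga1 had a further peak of fold 2.49 beyond its other end. Trim46 and Krtcap2 overlap and shared both of their peaks, one of fold 4.84 with its summit inside Krtcap2 and one of fold 2.73 with its summit inside Trim46.

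Inflammatory genes of the TLR7 pathway were present in the set in small numbers. Of 42 cytokine, chemokine and effector genes, 7 (16.7%, 6.97 to 31.4) had an R848-only gene-end peak, beside 8.65% of all protein-coding genes. In the same list 5 (11.9%) had an untreated-only peak, beside 13.0% of all genes, and 1 had a shared one. Of the 7, 4 had neither a shared nor an untreated-only gene-end peak, beside 77.2% of all genes of the set. Cxcl2 had 2 such peaks, of fold 4.08 with the summit 112 bp upstream of its start and of fold 2.47 beyond its other end, and the nearest untreated peak was 90062 bp from the first. The peak at the start, chr5:90903639-90904259, held the printed NF-kB motif. Cxcl16, a membrane-bound chemokine, had folds of 4.03 and 3.23. Ccl3 and Ccl4, which encode the chemokines MIP-1 alpha and beta and overlap in the reference, shared a peak of fold 3.59. Its summit was inside both genes, 314 bp from the start of Ccl3, and it was 80 bp from an untreated peak.

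Of 14 genes of NF-kB subunits and IkB proteins, 3 (21.4%, 4.66 to 50.8) had a peak of the set, with Nfkb1 at 4.70. Nfkbiz, a nuclear IkB protein induced by Toll-like receptors, had a fold of 3.04 at 3 bp inside an end of the gene, with the strand not available. Nfkbie, the IkB epsilon gene, had 2.93 at 560 bp inside its start, and it had a shared peak as well. Of 28 immediate early transcription factor genes, 5 (17.9%) had a peak of the set. An untreated-only peak lay at 9 (32.1%) and a shared one at 11 (39.3%), beside 13.0% and 15.7% of all genes. Nr4a3, an orphan nuclear receptor, stood at a fold of 4.08 with its summit 12 bp before the start, and Maff, a small Maf protein, at 3.59. Klf6, a zinc finger factor, had 3.04 and Atf3, a stress-induced repressor, 3.02, both beyond the other end of a gene that also had a shared peak.

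Of 24 feedback inhibitors of the pathway, 15 (62.5%) had a shared peak, beside 15.7% of all genes, and 3 (12.5%) had a peak of the set. They were the deubiquitinase Otud1 (fold 3.59, 60 bp from an untreated peak), Atf3 and the cytokine signalling inhibitor Cish (2.49). Of 31 genes of Toll-like receptor signalling itself, 3 (9.68%) had one: Irf5 and the TAK1-binding protein Tab1 at 3.32, and Irf8 at 3.04. Of 40 interferon response genes, 4 (2.79 to 23.7%) had one, near the share over all genes: Parp14 at 3.59, Dtx3l and Rsad2 at 2.76, and Stat2 at 2.49. The mono-ADP-ribosyltransferase Parp14 and its binding partner Dtx3l are neighbours on chromosome 16, and Rsad2 encodes the antiviral enzyme viperin.

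The list with the highest share was that of macrophage identity genes, where 8 of 33 (24.2%, 11.1 to 42.3) had a peak of the set. An untreated-only peak lay at 5 of the 33 (15.2%, beside 13.0% of all genes) and a shared one at 5. Among the 8, a q-value of 0.05 or less was listed for the peaks of C1qc and Cebpa alone. C1qc had a fold of 3.81, its summit 109 bp upstream of the start, in a peak from 136892854 to 136893210 on chromosome 4. Cebpa, a transcription factor of the myeloid lineage, had 3.32 at 957 bp upstream, with an untreated-only peak 395 bp away. Cd14, a co-receptor for Toll-like receptors, and Fcer1g, the common gamma chain of Fc receptors, both had 3.04. Of 18 lymphoid markers, 2 (11.1%, 1.38 to 34.7) had a peak of the set, Zap70 (3.39) and Cd3d (2.76), both at the other end of the gene. Markers of other cells gave 0 of 17 granulocyte and dendritic cell and 0 of 12 stromal and endothelial genes, which leaves upper exact bounds of 19.5% and 26.5%. Of 27 genes of unrelated tissues, Syt1 of synapses (3.59) and Ckm of muscle (2.63) had one (7.41%). A peak at a marker does not measure which cells were present.

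**Figure D4:**
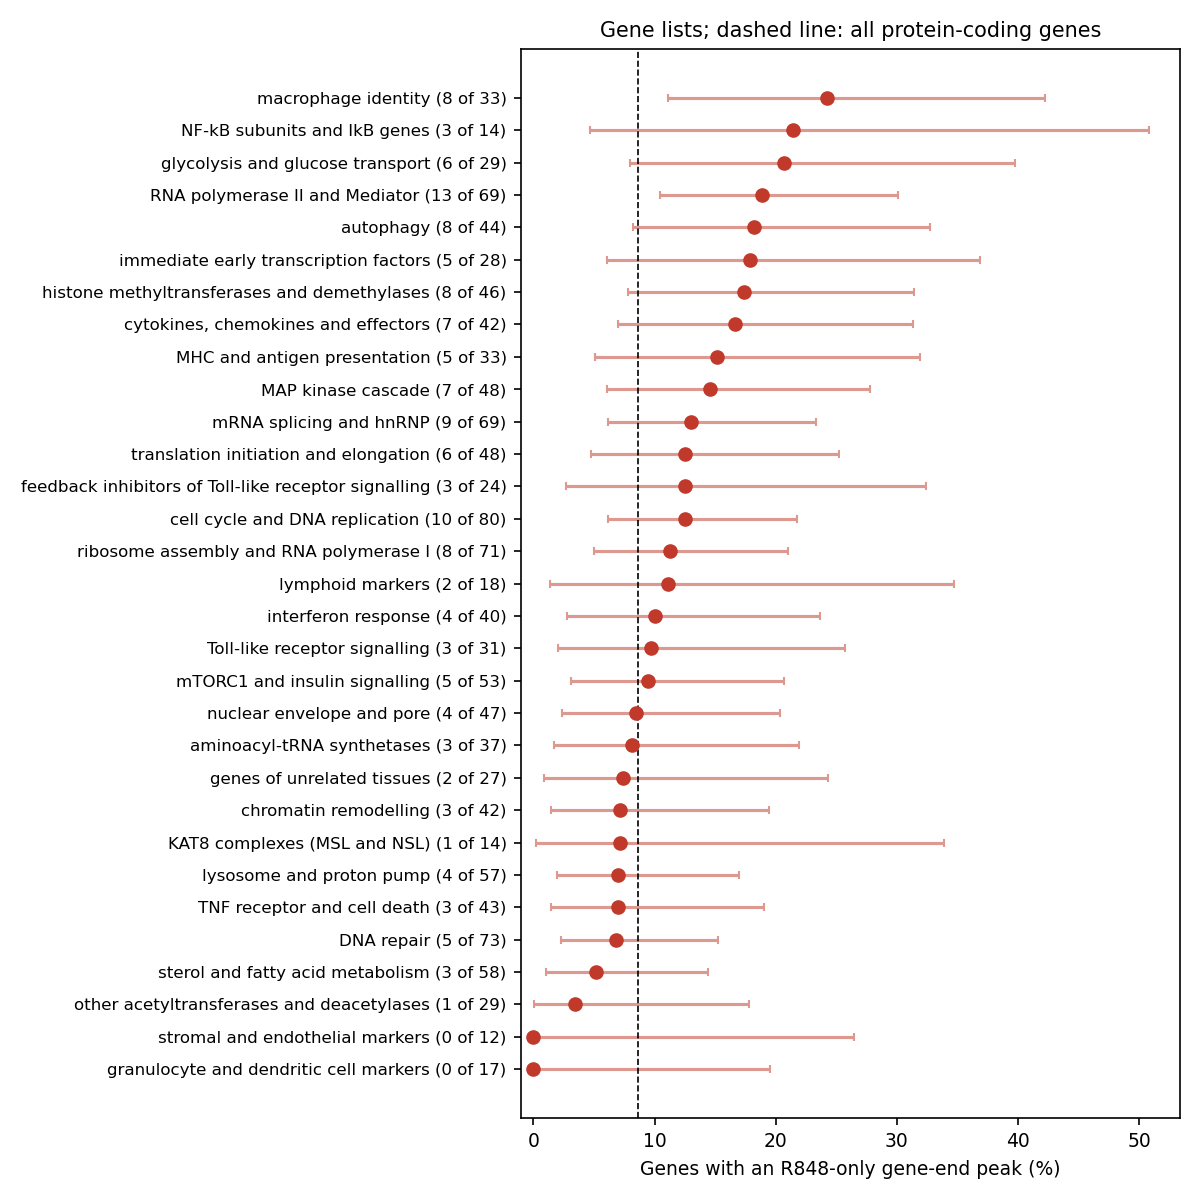
Share of each gene list with an R848-only gene-end peak (horizontal axis, %), with the number of members and 95% exact intervals; the dashed line is the 8.65% of all protein-coding genes. Of the 31 lists, 19 lie above the line, and the whole interval lies above it for macrophage identity and for RNA polymerase II and Mediator. Intervals are per list and make no allowance for the number of lists. Many lists, these among them, also stood above the share over all genes in untreated-only peaks (13.0%).

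Genes of the transcription machinery formed the other list whose interval lay above the share over all genes. Of 69 genes of RNA polymerase II, its general factors and Mediator, 13 (18.8%, 10.4 to 30.1) had a peak of the set. An untreated-only peak lay at 14 (20.3%, beside 13.0% of all genes) and a shared one at 18 (26.1%, beside 15.7%). The list thus also stood above the share over all genes in these classes. Among the 13, a q-value of 0.05 or less was listed for the peaks of Cdk7, Gtf2f1, Med18, Med11 and Polr2j alone. Of the 13, 11 had neither a shared nor an untreated-only gene-end peak, beside 77.2% of all 1893 genes of the set. Cdk7, the kinase of TFIIH, had a fold of 3.59 and Gtf2f1, a subunit of TFIIF, 3.42, both inside their starts. The Mediator subunits Med18 and Med11 had 3.32 and 3.23. The peak named for Med11, at its other end, is the same as the weaker one of Cxcl16. Among 69 genes of mRNA splicing, 9 (13.0%) had one, among them Prpf19, a ubiquitin ligase of the spliceosome, at 4.14. The splice site factor U2af2 had 3.72 and Hnrnpr 2.76.

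Chromatin regulators gave small counts. The intervals of their lists overlapped one another, and each held the 8.65% of all protein-coding genes. Of 14 genes of the MSL and NSL complexes themselves, Wdr5 had an R848-only peak (fold 3.59, summit 120 bp upstream, 200 bp wide), 2 had an untreated-only peak and 5 had a shared one. Of 29 other acetyltransferases and deacetylases, Hdac11 had one, at 2.76. Of 46 histone methyltransferases and demethylases, 24 (52.2%) had a shared peak, beside 15.7% of all genes, and 8 (17.4%, 7.82 to 31.4) had one of the set. They included Setd1b, which methylates histone H3 at lysine 4 (3.49), the Polycomb subunit Eed and the heterochromatin enzyme Suv39h1 (3.32 each) and the demethylase Kdm7a (2.90). In the chromatin remodelling list 3 of 42 (7.14%) had one, namely Mta2 (3.59) and Mta1 (2.58) of the NuRD complex and the acetyl-lysine reader Brd2 (2.48).

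Genes of protein synthesis and growth followed. Of 48 translation factor genes, 6 (12.5%) had a peak of the set, led by Eif4ebp2, and Eif4g2 (3.59), the initiation factor subunit gene Eif3c (3.32) and Eif4ebp1 (3.32), a paralogue of Eif4ebp2, came next. Of 71 genes of ribosome assembly and RNA polymerase I, 8 (11.3%) had one, among them the rRNA methyltransferase Nop2 (3.80, 11 bp from an untreated peak), Dhx37 (3.32), Nol11 (3.04) and Rrp9 (2.91). The aminoacyl-tRNA synthetases gave 3 of 37 (8.11%). In mTORC1 and insulin signalling 5 of 53 (9.43%) had one and 12 (22.6%) had an untreated-only peak, beside 13.0% of all genes. Those of the list with the highest folds were Sesn3 (4.70), Sesn2, its paralogue (3.87), Depdc5, a subunit of the GATOR1 complex that restrains mTORC1 (3.59), and the Ragulator subunit Lamtor4 (3.32). The first 3 had their summits 51 to 134 bp upstream of the start.

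Autophagy genes had a peak of the set in 8 of 44 cases (18.2%, 8.19 to 32.7), and lysosome and proton pump genes in 4 of 57 (7.02%). Of the 8 autophagy genes, Calcoco1 alone had a peak with a q-value of 0.05 or less. The autophagy receptor Calcoco1 (3.59), the lipid scramblase Atg9a (3.04) and the lipid transfer proteins Atg2a (2.96) and Atg2b (2.76) led the first list. The cathepsins Ctsz (4.06) and Ctsc (2.76), the proton pump subunit Atp6v1b2 (3.32) and the sulfatase Arsa (2.71) made up the second. There 17 genes (29.8%) had an untreated-only peak, beside 13.0% of all genes. Glycolysis and glucose transport gave 6 of 29 (20.7%, 7.99 to 39.7), beside 8.65% of all protein-coding genes. None of the 6 had a peak with a q-value of 0.05 or less. Pfkm stood at a fold of 3.04 and Aldoc, Hk2 and Pfkfb3 at 2.76. Of these 4, Hk2 and Pfkfb3 had untreated peaks 656 bp and 53 bp away. Sterol and fatty acid metabolism gave 3 of 58 (5.17%): the lanosterol synthase gene Lss (3.59), Dgat2 (3.32) and the LXR alpha gene Nr1h3 (2.49).

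For the remaining lists the interval spanned the share over all genes. The same held for every list above except macrophage identity and RNA polymerase II and Mediator. The cell cycle and DNA replication list gave 10 of 80 (12.5%), with Gins3 of the replicative helicase (3.32), Pold3 of DNA polymerase delta (3.04) and Cdc20 and E2f1 (2.76 each). DNA repair gave 5 of 73 (6.85%), led by Fancl at 3.87. The MAP kinase cascade gave 7 of 48 (14.6%), with Sos1 (3.04), Mapk3 (2.89), Map2k2 (2.82) and Map3k5 (2.76). None of these 7 genes had a peak with a q-value of 0.05 or less. Mapk3 and Map2k2 had untreated peaks 42 bp and 222 bp away. For Sos1 and Map3k5 the gaps were 57709 bp and 45381 bp. TNF receptor and cell death genes gave 3 of 43 (6.98%), among them Casp2 (3.32) and the inflammasome sensor Nlrp3 (2.82). MHC and antigen presentation gave 5 of 33 (15.2%), where H2-Q4 (3.59) is a class I gene and the chaperone gene Tapbp had 3.16. Psmb8 and Tap1 shared 1 peak of fold 3.08. H2-Q4 belongs to a family of close copies, among which reads can be hard to place. Nuclear envelope and pore genes gave 4 of 47 (8.51%).

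Of the 25 groups of genes taken by symbol, 12 lay above the share over all genes. The cytosolic ribosomal protein genes gave 16 of 101 (15.8%, 9.33 to 24.4), among them Rpl41, Rps19 and Rps20 at a fold of 3.59 each. They also stood high in untreated-only (17.8%) and shared peaks (24.8%), beside 13.0% and 15.7% of all genes. Such genes have many processed pseudogenes, among which reads can be hard to place. Olfactory receptors gave 24 of 1110 (2.16%, 1.39 to 3.20) and vomeronasal receptors 7 of 355 (1.97%, 0.796 to 4.02), and both intervals lay below the share over all genes. They also stood low in untreated-only peaks (2.43% and 1.41%) and in shared peaks (0.360% and 1.13%), so the low share is not particular to the set. Both families are expressed in sensory neurons and are in large clusters of similar copies. Zinc finger genes of the Zfp series gave 26 of 397 (6.55%) and solute carriers 39 of 375 (10.4%).

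Promoter sequence, which the rule did not use, was taken from RefSeq windows of 300 bp, from 250 bp before to 50 bp after the transcript start, for 15752 genes. Windows of the 1094 genes with an R848-only peak at the start had a median GC content of 60.7%, beside 56.3% over all windows. The median was 52.3% in 9979 genes with no gene-end peak, 60.7% in 1801 genes with an untreated-only peak at the start and 65.0% in 2608 genes with a shared one. An observed to expected CpG ratio of 0.6 or more, a common mark of CpG islands, was found in 67.4% of the R848-only windows, 70.8% of the untreated-only, 88.3% of the shared and 34.4% of those with no peak. Genes whose R848-only peak lay at the other end alone (322) stood at 57.2% GC and at 48.4%, near the 48.9% of all windows. A gene can belong to more than 1 of the classes with a peak. Of 1112 pairs of a member and a gene at whose start it lay, the summit fell within the window in 357 (32.1%).

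Motifs of promoters were searched on both strands of the windows, and matches of different motifs could overlap. The GC box (GGGCGG) was in 64.1% of R848-only windows, 46.7% of all windows and 78.4% of shared ones. The NRF1 motif (GCGC and TGCGC 1 base apart) was in 8.68%, 6.82% and 15.1% in the same order, and YY1 (AAGATGGCG) in 2.65%, 2.00% and 3.41%. The ETS motif (CCGGAAGT) was in 6.12%, 5.37% and 7.17%, and CRE (TGACGTCA) in 3.56%, 2.38% and 3.64%. CCAAT was in 40.8%, 39.4% and 45.6%, while TATAAA was in 7.59%, 13.7% and 4.98%. The values of the R848-only genes lay between those of all windows and the shared ones for these 7 motifs, but the order did not hold for each motif among the 379 windows with an R848-only peak of q-value 0.05 or less. There ETS stood at 9.23%, YY1 and CRE at 3.69% and CCAAT at 38.3%, while GC box (65.2%), NRF1 (10.3%) and TATAAA (7.65%) kept their place. The exact intervals over all 1094 windows for ETS (4.78 to 7.71) and YY1 (1.78 to 3.78) held the values of both all and shared windows. In untreated-only windows the GC box stood at 63.5%, NRF1 at 11.2%, TATAAA at 8.50% and CCAAT at 37.6%. ETS stood there at 8.33%, YY1 at 3.61% and CRE at 3.83%. The middle place of GC box, NRF1 and TATAAA was thus not particular to the set.

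Motifs of inducible and macrophage genes were near the share over all windows. The NF-kB motif (GGGA and TTTCC 1 base apart) was in 6 of the 1094 windows (0.548%), beside 0.381% of all and 0.383% of the shared ones. These 6 genes, named after their values were seen, were Cxcl2, Tufm, Rtbdn, Slc6a12, Tnn and Anxa4. AP-1 (TGANTCA) was in 5.58% of R848-only and 7.0% of all windows, the ISRE (GAAA and GAAA 2 bases apart) in 3.56% and 3.5%, and PU.1 (GAGGAAGT) in 2.93% and 3.20%. Shared windows held AP-1 in 3.26%, the ISRE in 1.96% and PU.1 in 2.76%, so AP-1 and PU.1 also lay between all and shared windows. The R848-only interval for AP-1 (4.29 to 7.11) held the value of all windows but not that of shared ones. In the untreated-only windows AP-1 stood at 4.78%, the ISRE at 2.5% and NF-kB at 0.555%. No match says only that these letters are not in this window.

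**Figure D5:**
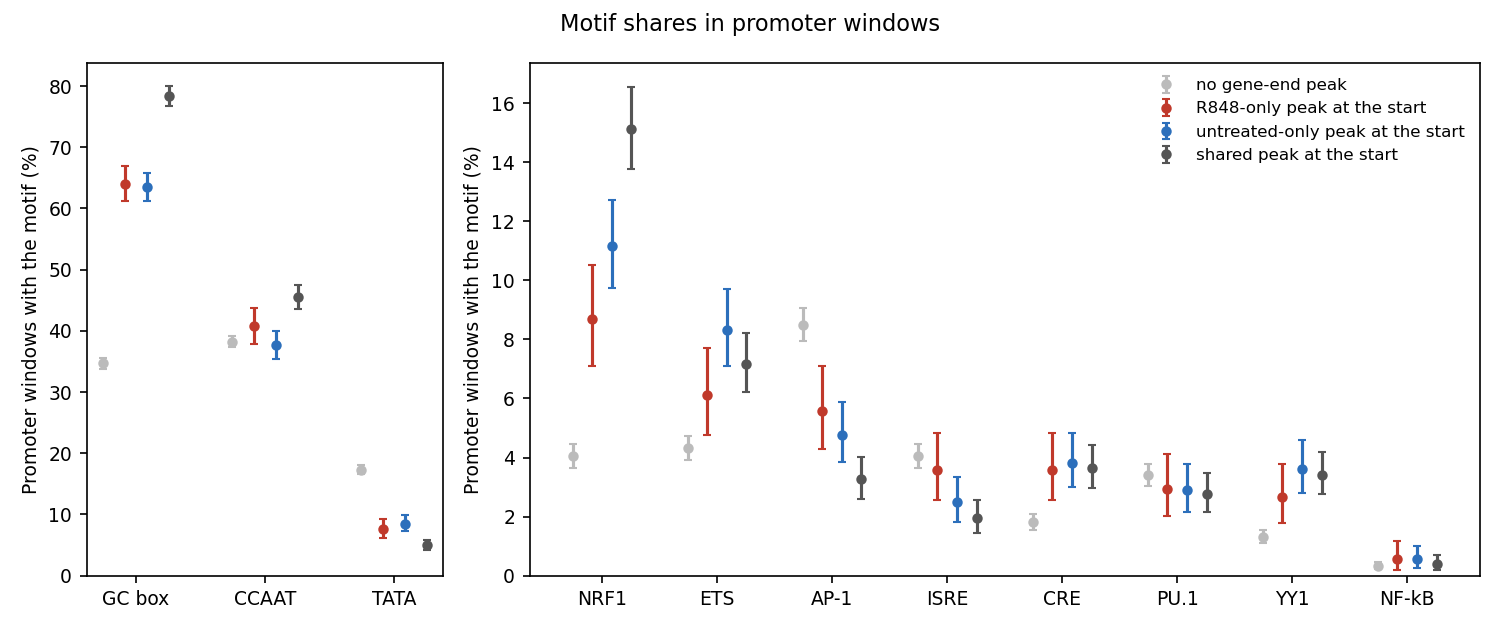
Share of promoter windows of 300 bp with each motif on either strand (vertical axes, %; the axes of the left and right panels differ), for genes with no gene-end peak (light grey) and with an R848-only (red), untreated-only (blue) or shared peak (dark grey) at the start, with 95% exact intervals. The GC box is in 64.1% of R848-only and 78.4% of shared windows, and the NF-kB motif is in under 1% of each group.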

How the data were processed

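KAT8 CUT&Tag peaks of 1 untreated and 1 R848-treated library were used, grouped by the treatment label. Per the submitters' processing notes the build was mm10 and the tools, in no stated order or role, were DiffBind, MACS2 2.2.7.1 and Bowtie 0.12.8. Caller settings and any control library: not given in the sources used here. The deposited columns are a score, the summit, a ratio of fold over background, and −log10 values of p and of q. Peaks were called per sample; the lists hold no read counts. The lowest −log10 p was 2.01 in both lists, so weak peaks are included. Pileup and background were solved from fold and p-value.

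Overlaps of at least 1 bp were computed in Python 3.11.15 (bedtools 2.31.1 gave the same 16036 overlapping R848 peaks). Genes, starts and promoter sequences came from RefSeq tables of GRCm38.p6, which gave strand for 17492 of 21887 protein-coding genes. Of 1280 listed genes 1276 were found. Shares carry 95% exact (Clopper-Pearson) intervals. Named are the 30 highest folds, the 5 widest peaks, up to 4 genes per list by fold (and up to 4 of the gene groups by symbol), up to 10 genes with several peaks, and 3 peaks on each side of each threshold. Some genes so chosen are not reported here. Members and lists were chosen with earlier results of these data known. The code was tested on simulated data. Alternatives were other windows, overlap rules, q-values and list lengths.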

Additional observations from a re-analysis of the deposited data

How the results depend on the processing

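In the order peaks, genes, share of summits inside the gene, share at the gene start, median width, median fold and share with a q-value of 0.05 or less, the values were 1761, 1893, 60.4%, 75.0%, 264 bp, 2.96 and 32.5%. Shares at the gene start were taken over peaks of known strand only. A window of 500 bp gave 1173 peaks at 1260 genes, with 83.9% at the start. A window of 3000 bp gave 3278 peaks at 3471 genes, 57.7% inside, 62.0% at the start, 257 bp, a fold of 2.79 and 29.0%. Counting as overlapping the peaks with summits within 250 bp gave 78.1% at the start, 282 bp and 36.8%. R848 peaks with a q-value of 0.05 or less numbered 572 at 639 genes, with 78.8% at the start, 289 bp and a fold of 3.32. With that q-value in both lists there were 931 peaks at 1063 genes, 85.0% at the start, 310 bp and a fold of 3.59. A −log10 q of 5 or more left 9 peaks at 10 genes, with 22.2% inside, 468 bp and a fold of 4.97. Of those with known strand, 100% were at the start (59.0 to 100). In these last 3 settings 100% had a q-value of 0.05 or less by construction. Overlap of at least 50% of either peak (1925 peaks), no untreated peak within 1000 bp (1467), lists of equal length (1832) and leaving out predicted genes (1624) left each of the 7 values within its spread or within 1.5 times its count. No paired analysis was possible because each group had 1 library. The part of depth in the set was not tested: 1560 of its peaks had a summit pileup of 12 or less, and the untreated background was 1.29 times that of the R848 library.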

Other observations

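The sex chromosomes held few peaks of the set. Of 966 protein-coding X genes, 11 (1.14%, 95% exact interval 0.570 to 2.03) had an R848-only gene-end peak, while the autosomes ranged from 6.51% to 12.2%. Untreated-only gene-end peaks lay at 19 X genes (1.97%, autosomes 11.1% to 16.8%) and shared ones at 28 (2.90%, autosomes 11.4% to 22.4%), so the X stood low in all 3 sets of gene-end peaks. The Y, with 256 genes, stood at 1.17% (3 genes), 3.13% and 2.34% in the same order. The X carries 4.41% of the genes, 3.27% of all R848 peaks and 0.625% of the set. The 11 X genes, named after their values were seen, were Gpr34, Suv39h1, Ubqln2, Phka1, Tex28, Spin2f, Rhox3e, Gm52420, Gm5923, Gm52446 and Gm52417. Several of them belong to families of similar copies, where reads can be hard to place. Read depth on the X, the sex of the cells and the share of bases that reads can be placed on were not analysed here.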
